A study of Mus musculus with 21 samples.

Results

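The CHD4-named peak list holds 5517 peaks from 1 chromatin immunoprecipitation (ChIP-seq) library made at E13.5 from the ganglionic eminences of CD1 mouse embryos, called against input DNA by the authors. Its members are all peaks of the 1 deposited list that carries the name CHD4, out of 91480 peaks in the 6 ChIP lists of the series. The ganglionic eminences, labelled Basal Ganglia in the series, are the ventral forebrain swellings that give rise to GABAergic neurons. The labels and the list's own name disagree. The list named CHD4 is attached to the sample titled HDAC2, whose labels name a Bethyl antibody and pair it with Input1, whereas the list attached to the sample titled CHD4 is named HDAC1 and that of the sample titled HDAC1 is named HDAC2. The CHD4-named list shares a prefix in its name with the MBD3-named list, and the labels pair the samples titled CHD4 and MBD3 with Input2. Which name is right was not settled, so a statement below holds for the list named CHD4 and not necessarily for the protein CHD4. The other lists are named here by the same rule.

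All 6 ChIP libraries came from the same tissue, stage and strain, with cells fixed in 5 mM DSG and then 1% PFA, and each list rests on 1 library. The 4 accessibility lists (ATAC-seq) came from E12.5 embryos that were Dlx1/2KO or WT, with 3 embryos combined for each genotype and cell fraction. The FTneg fraction holds cells of the subventricular and mantle zones (SVZ/MZ) and the FTpos fraction cells of the ventricular zone (VZ). The homeodomain proteins DLX1 and DLX2 direct the development of GABAergic neurons. No list has a replicate and sequencing depth is unknown, so no test was run, and the Wilson 95% intervals given below cover counting error over peaks or genes only.

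CHD4 is the ATP-driven motor of NuRD, a complex that slides nucleosomes and removes acetyl groups from histones. HDAC1 and HDAC2 are its deacetylases, MBD2 or MBD3 join its remodelling and deacetylase modules, RBBP4 and RBBP7 hold histones, and MTA and GATAD2 proteins are scaffolds. NuRD is found at promoters and enhancers and is best known for damping transcription there. A further class of genes is used below, those read by RNA polymerase III, such as transfer RNA (tRNA) genes, which carry their promoter inside the gene. An element of that promoter is the B box, the binding site of the factor TFIIIC.

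The promoter sequences shown here each hold a B box under or beside a CHD4-named peak, a feature that recurs in the results. The B box was searched as GGTTCGA, any 2 bases and CC on both strands, so that it reads GG, any 2 bases and TCGAACC where it runs against the gene. Capitals mark every box in the stretch shown, of which Mapk6 has 2 and the others 1. The sequences are those of RefSeq on GRCm38.p6, the assembly of mm10, written 5′ to 3′ on the strand of the gene. Ncam2 (chr16:81200497-81200597, plus strand) had the peak of highest fold enrichment of any gene start. Mapk6 (chr9:75409500-75409600, minus strand) was the next of these promoters by fold. Apba3 (chr10:81268037-81268137, plus strand) had a peak that lay in no other list. Polr3e (chr7:120917532-120917632, plus strand) lies beside an annotated tRNA gene, so the box marked there may be that gene's own. Chchd1 (chr14:20702892-20702992, plus strand) had a peak in all 6 lists.
Ncam2: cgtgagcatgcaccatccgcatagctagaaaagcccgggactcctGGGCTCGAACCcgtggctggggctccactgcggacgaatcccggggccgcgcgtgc
Mapk6: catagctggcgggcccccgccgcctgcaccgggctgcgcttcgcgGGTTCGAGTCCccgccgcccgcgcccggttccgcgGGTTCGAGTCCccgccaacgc
Apba3: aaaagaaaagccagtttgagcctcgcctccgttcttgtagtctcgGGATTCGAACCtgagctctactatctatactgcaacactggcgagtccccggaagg
Polr3e: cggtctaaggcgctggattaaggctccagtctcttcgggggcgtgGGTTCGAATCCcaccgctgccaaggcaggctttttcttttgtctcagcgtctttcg
Chchd1: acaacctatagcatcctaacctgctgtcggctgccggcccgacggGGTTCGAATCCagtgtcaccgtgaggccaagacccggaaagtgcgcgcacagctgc

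The CHD4-named list was the shortest of the 6 and its peaks were mostly weak. Fold enrichment, the authors' ratio of ChIP to expected signal at the summit, ran between 2.27 and 16.0 with a median of 4.21 and quartiles of 3.66 and 4.91. Only 24 peaks had a fold of at least 10, and 77.2% were under 5. The median width was 412 bp, the median −log10 q was 6.83, and 1278 peaks (23.2%) had a −log10 q of at least 10. The peaks covered 2.67 Mb in all. Chromosome X held 35 peaks, 0.634% of the list, while it holds 4.32% of the protein-coding genes used here. In the other 5 lists X held between 0.620% and 2.00% of peaks.

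CHD4-named peaks were split almost evenly between gene ends, gene interiors and intergenic sequence. A summit lay within 1 kb of either end of a protein-coding gene for 1963 peaks (35.6%, interval 34.3 to 36.9), while such windows make up 2.91% of the chromosomes' span. A further 1746 peaks (31.6%) lay inside a gene more than 1 kb from its ends and 1808 (32.8%) lay outside genes. Of all 5517 peaks, 704 (12.8%) were more than 100 kb from any gene. The share at gene ends was 41.1% for MBD3, 52.3% for the HDAC1-named list, 51.7% for the HDAC2-named list, 33.1% for RBBP4 and 16.5% for RBBP7. The CHD4-named list thus stood closest to RBBP4 in position. Peaks at gene ends had a median fold of 4.12, those inside genes 4.21 and those outside 4.32.

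At gene ends the peaks marked starts. Of 1540 peaks at an end of a gene whose strand was known, 97.5% lay at the start. Around 20392 annotated starts of 16759 genes, 1734 summits (32.7% of the 5295 peaks on the chromosomes covered) lay within 1 kb, 907 upstream and 826 downstream, with a median position of −20 bp. Summits did not centre on the start itself. In bins of 100 bp, 215 lay between 300 and 200 bp upstream and 204 between 100 and 200 bp downstream, against 159 in the last 100 bp before the start.

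**Figure D1:**
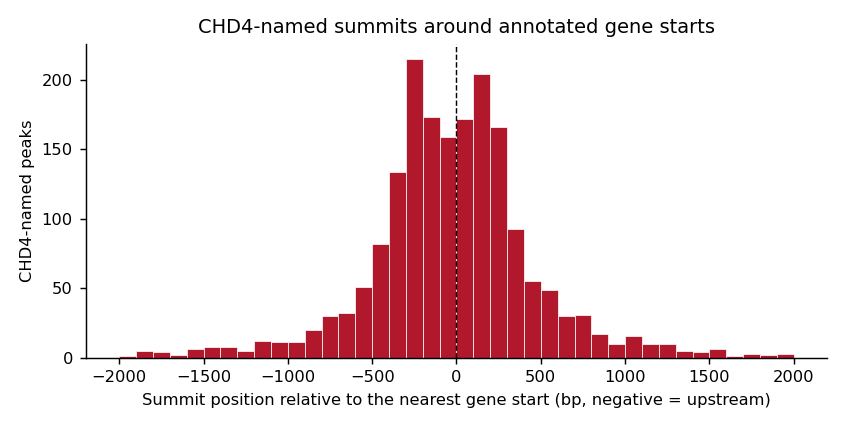
Histogram of CHD4-named summits by their distance to the nearest annotated gene start (x axis, bp in bins of 100, negative upstream) and the number of peaks per bin (y axis). A bin upstream of the start holds 215 peaks and a bin downstream holds 204, with 159 in the bin just before the start.

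Most CHD4-named peaks lay where other NuRD subunit lists also had a peak. At least 1 other list overlapped 4948 of them (89.7%, interval 88.9 to 90.5) by 1 bp or more. The share was 84.4% for RBBP4, 66.3% for MBD3, 63.3% for the HDAC1-named list, 46.0% for the HDAC2-named list and 45.3% for RBBP7. Seen from the other side, CHD4-named peaks overlapped 30.5% of MBD3-named peaks, 22.8% of HDAC2-named, 18.9% of HDAC1-named, 16.5% of RBBP7-named and 15.1% of RBBP4-named peaks. The other lists cover between 0.228% of the span (HDAC2-named) and 0.781% (RBBP4), so long lists had more chance to overlap. With every list cut by q to the length of the CHD4-named list, the share with any other list was 67.7%, and MBD3 with 45.6% and RBBP4 with 42.9% were the highest.

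The combination found most often was all 5 other lists, at 1371 peaks (24.9%, interval 23.7 to 26.01). That share was 6.04% with lists of equal length. The next was MBD3, HDAC1-named, HDAC2-named and RBBP4 without RBBP7, at 697 peaks (12.6%). RBBP4 alone accompanied 377 peaks (6.83%). A further 569 peaks (10.3%, interval 9.54 to 11.1) overlapped none of the 5 lists. Across overlapping peaks the rank correlation of fold enrichment was highest with MBD3 (Spearman's rho 0.27 over 3657 peaks) and ran between 0.05 and 0.15 with the other 4 lists. These are descriptions across peaks of the same 2 libraries, which share the tissue. The CHD4-named and MBD3-named lists also share a name prefix, and whether they share an input depends on which name is right. The part of this in the correlation was not tested.

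Peaks that lay in no other list were not the weaker ones by fold. Their median fold was 4.51, against 4.24 for peaks with all 5 lists, although their median −log10 q was 7.17 against 7.96 and their median width 355 bp against 528 bp. With the list split by fold into 5 groups of equal size, from lowest to highest, the share in no other list was 5.80%, 7.98%, 10.3%, 12.3% and 15.1%. Over the same groups the share with RBBP4 was 89.8%, 86.4%, 84.9%, 82.5% and 78.3%. The share at gene ends was 42.5% in the lowest group and 32.4% in the highest. With groups by −log10 q instead, gene ends went the other way, at 36.2% in the lowest group and 40.04% in the highest. By q the share in no other list was 8.06%, 10.2%, 11.2%, 10.8% and 11.3%. The share with RBBP4 was 86.1% in the lowest group by q and 81.3% in the highest. Sharing with all 5 other lists was 18.03% and 36.87% in these groups, against 25.1% and 30.98% by fold. The peaks in no other list lay at gene ends in 25.5% of cases, against 33.3% of those with all 5.

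**Figure D2:**
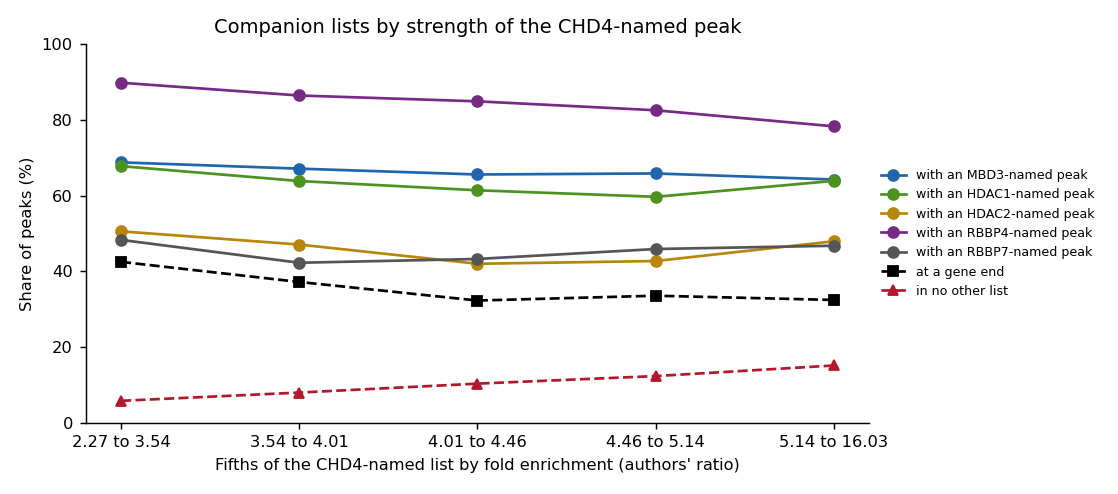
Share of CHD4-named peaks (y axis, %) that overlap each other list, lie at a gene end or lie in no other list, in 5 equal groups of the list by the authors' fold enrichment (x axis, lowest to highest). The share in no other list was 5.80% in the lowest group and 15.1% in the highest, while the share with RBBP4 was 89.8% and 78.3%.

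The 20 strongest peaks mixed shared and solitary sites. The first lay inside Cacng4, which encodes an accessory protein of AMPA receptors, at a fold of 16.0 (chromosome 11, 107784032 to 107784744, mm10) and was in all 6 lists, with folds of 40.1 in MBD3, 31.4 in the HDAC1-named list, 34.5 in the HDAC2-named list, 46.6 in RBBP4 and 50.7 in RBBP7. Acvr1b, an activin receptor gene, resembled it, with 10.4 in the CHD4-named list and 21.6 to 28.7 in the others. The Cacng4 folds were the highest of any peak in every list but the HDAC1-named one, whose highest was 33.7. Why the same site stood at or near the top of all 6 lists was not tested. Ncam2, a neural cell adhesion gene, came next after Cacng4 with 15.8 at its start (chromosome 16, 81200151 to 81201187), and was in 4 other lists at folds of 4.98 to 6.42. A site 396 bp outside Polr2e, which encodes a subunit shared by the RNA polymerases, had a fold of 14.7 and a −log10 q of 79.8, the highest of the list, with no peak in any other list. A site inside Scfd2 (13.2) and a site in Lrrc8d, a subunit of volume-regulated anion channels (10.3), were also in no other list.

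Of all 20 strongest peaks, those above included, 13 lay at gene ends and 12 overlapped RBBP4. Ctnnb1, which encodes beta-catenin, had 12.49, and Bbc3, the pro-apoptotic gene also called Puma, had 12.6. Mapk6, an atypical MAP kinase gene, had 10.8 at its start, Cox5b, a subunit of cytochrome c oxidase, 10.7, and Ptpn11, the phosphatase SHP2, 10.4. The peaks nearest to Armt1 (12.3, at the end of Rmnd1), Trerf1 (11.8), Edrf1 (11.4), Ocel1 (11.4), Atxn7l1 (11.2), Zbtb34 (10.7), Vamp9 (10.7), Prcc (10.5) and Ppid (10.5) completed the 20. The fold of the last of the 20 was 10.3 and that of the next peak 10.1. Among the 100 strongest peaks, 44 lay at gene ends and 23 in no other list.

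Peaks in no other list were also found at high fold elsewhere. Of the 10 strongest peaks in no other list, those after Polr2e, Scfd2 and Lrrc8d were near Smg9, a factor of nonsense-mediated decay (10.1), Trim27 (9.96), Tmem143 (9.78), the ubiquitin-conjugating enzyme gene Ube2o (9.75), the sialic acid synthase gene Nans (9.67), Endov (9.43) and the Mediator subunit gene Med1 (9.19). The Trim27 peak was the only one of these 10 within 500 bp of a tRNA gene. Polr2e, Ube2o, Nans and Med1 held their peak within 1 kb of a gene end. A peak supported by 1 library only has no second measurement in these data.

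CHD4-named peaks lay near tRNA genes more often than the peaks of any other list. A summit lay within 500 bp of a tRNA gene for 98 peaks (1.78%, interval 1.46 to 2.16), and these stood at 125 of 408 annotated tRNA genes (30.6%, interval 26.4 to 35.3). The background over 4126 other genes of at most 150 bp was 0.533%. In the other lists the share of peaks near tRNA genes was 0.531% for the HDAC1-named list, 0.319% for the HDAC2-named list, 0.256% for MBD3, 0.255% for RBBP4 and 0.0938% for RBBP7. Their peaks stood at 105 tRNA genes for the HDAC1-named list (25.7%, interval 21.7 to 30.2, which overlaps that of the CHD4-named list), 87 for RBBP4, 44 for the HDAC2-named list, 34 for MBD3 and 17 for RBBP7. With every list cut by q to 5517 peaks, 98 CHD4-named peaks lay near tRNA genes, against 14 HDAC2-named, 13 HDAC1-named, 11 MBD3, 5 RBBP4 and 3 RBBP7 peaks. Among peaks with a −log10 q of at least 10 the share was 4.62% in the CHD4-named list, 0.436% in the HDAC1-named list and between 0.0510% and 0.212% in the other 4.

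**Figure D3:**
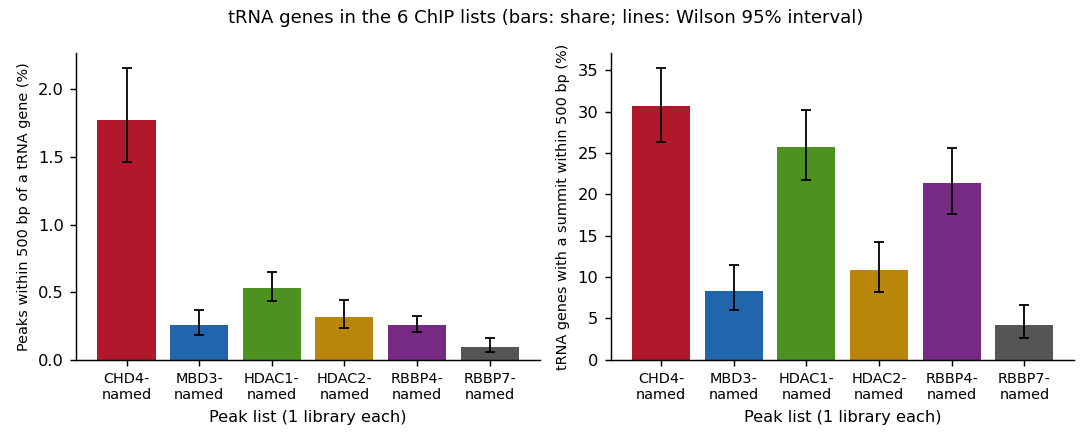
Left, share of each list's peaks whose summit lies within 500 bp of a tRNA gene (y axis, %), and right, share of the 408 tRNA genes with such a summit (y axis, %), for the 6 lists (x axis), with Wilson 95% intervals as lines. The CHD4-named list has 1.78% of its peaks there, against 0.0938% to 0.531% in the other lists.

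The peaks at tRNA genes were stronger and had fewer companions than the rest of the list. Their median fold was 5.02 (quartiles 4.18 and 6.28), against 4.20 for the other 5419 peaks. Of the 98, 26 (26.5%) lay in no other list and 3 (3.06%) in all 5, against 10.0% and 25.2% of the other peaks. An MBD3 peak accompanied 20.4% (interval 13.6 to 29.4), against 67.1% of the other peaks, and an RBBP7 peak 8.16% (4.19 to 15.3), against 45.9%. For RBBP4 the shares were 51.0% and 85.0%, for the HDAC2-named list 26.5% and 46.4%, and for the HDAC1-named list 55.1% and 63.4%. Summits lay close to the genes, at a median of 77.8 bp from the middle of the nearest tRNA gene, with 83 of 98 within 150 bp.

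Occupied tRNA genes were found in clusters and singly. The strongest such peak (9.96) lay in the tRNA gene cluster beside Trim27 on chromosome 13 (21169475 to 21170586), next to the genes n-TLaag5, n-TLaag7 and n-TMcat15, and was in no other list, as was a neighbour at n-TLcaa4 and n-TQctg7 (8.29). A peak at n-TRtct4 (9.95), inside Hes7 on chromosome 11, was in 4 other lists, and the peak at n-TLaag4 beside Polr3e, which encodes a subunit of RNA polymerase III (8.28), was in 3. The peak at n-TPagg7 and n-TPtgg8 (8.10) was in all 6. By chromosome, 41 of 105 tRNA genes on chromosome 13 and 24 of 52 on chromosome 11 had a summit, against 1 of 53 on chromosome 6 and none of 17 on X. By amino acid, 17 of 24 arginine, 10 of 16 proline and 10 of 17 threonine tRNA genes had one, against 2 of 56 cysteine and 2 of 20 glutamate tRNA genes. Of the 172 tRNA genes with a summit of any list, 31 had only a CHD4-named one and 4 had all 6. Many tRNA genes are near-identical copies, and how the authors placed reads that map to several copies is not given in the sources used here, so the count per gene is uncertain and the part of this in the result was not tested.

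Other genes read by RNA polymerase III were occupied unevenly. These genes were picked after the tRNA values had been seen. Rmrp, the RNA of RNase MRP, had a CHD4-named fold of 4.98, Rn7s1, a signal recognition particle RNA, 5.42, Vaultrc5, a vault RNA, 5.998, and Bc1, a neuronal cytoplasmic RNA, 3.99. Rn7sk, Rpph1, Rny1 and Rny3 had none. A summit within 500 bp was thus found at 4 of these 8 genes in the CHD4-named list, against 7 in RBBP4, 5 in the HDAC1-named list, 3 in the HDAC2-named list and 2 each in MBD3 and RBBP7. Rmrp and Rn7s1 had a peak in all 6 lists, and Rpph1, Rny1 and Rny3 had one in the HDAC1-named and RBBP4 lists.

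The same promoter element was present in the promoter windows of some protein-coding genes. The B box, whose letters are given with the sequences above, occurs in 28 of 20392 promoter windows of 300 bp (0.137%, both strands), and was chosen for search after the tRNA values had been seen. A CHD4-named peak overlapped 15 of these 28 promoters (53.6%, interval 35.8 to 70.5), while 1366 of all promoters (6.7%) had one. For the other lists the corresponding shares of B box promoters and of all promoters were 53.6% and 43.1% for RBBP4, 46.4% and 40.9% for the HDAC1-named list, 28.6% and 20.7% for the HDAC2-named list, 25% and 18.8% for MBD3 and 10.7% and 8.70% for RBBP7. The 15 peaks had a median fold of 5.32, against 4.19 over all promoters with a peak, and the summit lay a median of 47 bp from the box and at most 139 bp. Only 3 of the 15 promoters have an annotated tRNA gene within 500 bp, and there the box may be the tRNA gene's own. Among B box promoters with no tRNA gene that near, 12 of 24 had a peak.

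These promoters included 2 of the 20 strongest peaks of the list. Ncam2 had 15.8 with its summit 39 bp from the box, and Mapk6 had 10.8 with its summit between its boxes, 17 and 18 bp from them. Apba3, an adaptor of amyloid precursor protein (8.53), and the mitochondrial transcription termination factor gene Mterf1a (7.17) had a peak in no other list, as had Zfp839 (4.42) and Htatip2 (3.29). Polr3e (8.28), Polg, the mitochondrial DNA polymerase (4.16), and Ndufs7, a subunit of respiratory complex I (2.57), were the 3 beside tRNA genes. Mterf1b, a close copy of Mterf1a with a B box of its own, had no peak in any list. Hps1 had 8.06, Dap 6.15, Chchd1 5.32, Cltb 4.63, Dhx32 4.58 and Septin8 4.33. Among the B box promoters with no CHD4-named peak were Il1b and Gpr63, which had no peak in any list, and Ppan, which had one in 4 other lists. The B box was present in 5.11% of the 137 promoters of highest fold (at least 5.96) and in 1.098% of all promoters with a CHD4-named peak, against 0.0683% of promoters without one. Some other motifs were also more frequent in the group of highest fold, as given below. A match is a stretch of letters and not a measured site of TFIIIC. With the inner 9 letters of the box alone, the share of promoters with a peak was 22.1% of 195.

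Promoters with a CHD4-named peak were rich in CpG. Their median GC content was 66.3%, against 56.3% in promoters without one, and their median number of CpG in 300 bp was 26 against 12. With all promoters split into 5 groups of equal size from the lowest to the highest CpG number, 0.123%, 1.42%, 6.74%, 10.0% and 15.2% had a peak. The GC box GGGCGG was present in 78.0% of them, against 47.7% of all promoters, the NRF1 core TGCGCA in 15.8% against 9.93%, and the ETS motif CCGGAAG in 14.6% against 11.9%. The TATA box TATAAA was present in 4.69% against 12.4% and the homeodomain core TAATTA in 1.68% against 4.45%, with both strands searched throughout. All 6 lists had the same order over the CpG groups, and median GC was between 63.0% and 67.0% in promoters of the other lists, so CpG richness was shared by all 6. The 74 promoters whose peak was in no other list had a median of 20.5 CpG, against 27 for the 348 promoters with all 5 other lists.

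A CHD4-named peak lay at an end of 2018 of 20949 protein-coding genes (9.63%), the background for each gene list that follows. These lists were compiled with earlier results of these data known, and their counts are descriptions. Among genes of NuRD itself, 5 of 15 had a peak at an end. Chd4 had the highest at 8.87 (4.92 in MBD3, 10.9 in the HDAC1-named list, 5.44 in RBBP4 and 6.30 in RBBP7), followed by the scaffold gene Mta3 at 3.85, the methyl-CpG binding genes Mbd3 at 3.76 and Mbd2 at 3.49, and the deacetylase gene Hdac2 at 3.18. Hdac1, Rbbp4, Rbbp7, Gatad2a, Gatad2b, Mta1 and Mta2 had none. Of 26 genes of other chromatin repressors, 11 had one (42.3%). They included Cbx2 (5.99), Suz12 (5.75) and Rnf2 (5.01), which encode Polycomb subunits, the Groucho corepressor gene Tle4 (5.64), the CoREST gene Rcor2 (4.76) and the neuronal gene silencer Rest (3.65).

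Signalling and guidance genes followed. Of 19 Notch pathway genes, 6 had a peak, among them Hes6 (5.36), an antagonist of Hes1, and the ligand genes Dll1 (3.85), Jag1 (3.596) and Jag2 (3.47). Of 30 axon guidance and migration genes, 9 had one, led by the semaphorin receptor gene Nrp1 (6.46), the ephrin receptor gene Epha4 (4.93) and the netrin receptor gene Unc5d (4.76). Of 13 hedgehog genes, 3 had one, namely Disp1, which releases the ligand (6.75), the transducer gene Smo (4.46) and the receptor gene Ptch1 (3.66). The Wnt and the TGF-beta and BMP lists had 5 of 30 each, with Ctnnb1 (12.49) the strongest. Channel and synaptic genes had 6 of 35, cytosolic ribosomal proteins 4 of 25, cell cycle genes 3 of 18 and housekeeping genes 1 of 10.

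Lineage genes varied. A peak at an end was found at 5 of 38 GABAergic lineage genes, namely Dlx5 (4.82), Tshz1 (4.75), Sox11 (4.27), Foxp2 (3.35) and Dlx1 (2.92). Dlx2, Gad1, Gad2, Lhx6 and Nkx2-1 had none within 1 kb of an end. Ventricular zone progenitor genes had 2 of 22, Fabp7 (4.96) and Vax1 (4.37). Cortical glutamatergic genes, markers of the neighbouring dorsal forebrain, had 4 of 16, namely Neurod2 (4.95), Fezf2 (4.90), Neurod6 (3.61) and Neurod1 (3.13). Genes of oligodendrocytes and astrocytes (0 of 13), of endothelial and mural cells (0 of 14) and of microglia (0 of 8) had none. With a background of 9.63% and lists this short, a count of 0 does not set a list apart. With a window of 2500 bp, 2379 of all 20949 genes had a peak at an end. The counts were then 9 of 38 for GABAergic lineage and 4 of 22 for ventricular zone progenitor genes. They were also higher for Notch pathway genes (9 of 19) and other repressors (14 of 26), and unchanged for cortical glutamatergic genes (4 of 16). In all, 77 CHD4-named peaks lay inside or nearest to 25 of the 38 GABAergic lineage genes, among them a peak inside Gad2 (4.18). Over all 20949 genes, 3534 held or were nearest to a peak. Other lists were also high, with 66 peaks at 25 of 30 axon guidance and migration genes and 74 at 17 of 26 other repressor genes. Some were lower, such as the cell cycle list (4 of 18 genes) and the microglial list (0 of 8). Binding at a marker gene is not its expression, so these counts do not give the makeup of the tissue. Among peaks with a −log10 q of at least 10, genes with a peak at an end were 557 of 20949 in all. They were 1 of 15 for NuRD, 4 of 26 for other repressors, 2 of 30 for Wnt and 1 of 30 for axon guidance. The Notch, hedgehog, GABAergic, cortical glutamatergic and ribosomal protein lists kept 1 gene each. The TGF-beta and BMP, channel and synaptic, ventricular zone, cell cycle and housekeeping lists kept 0.

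**Figure D4:**
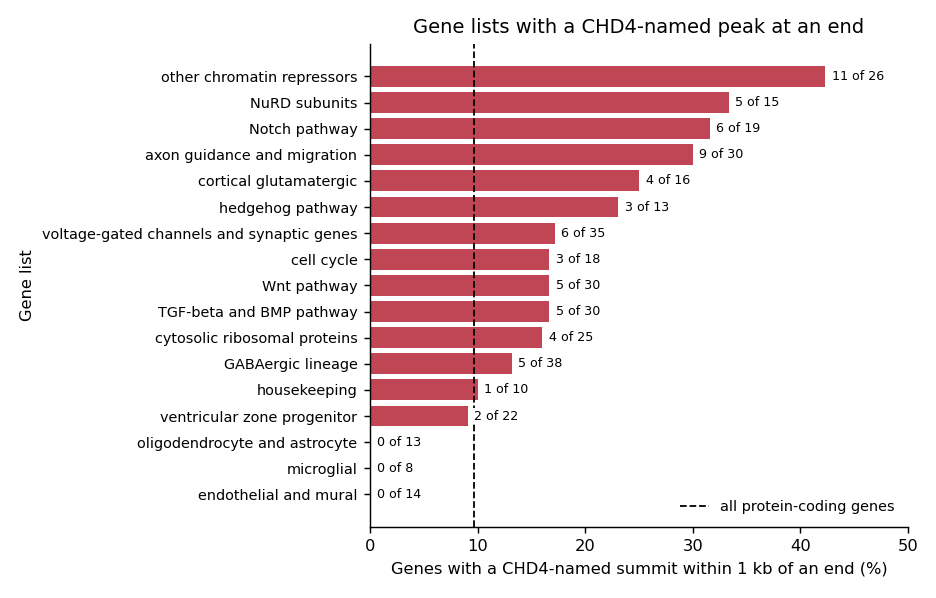
Share of each gene list with a CHD4-named summit within 1 kb of a gene end (x axis, %), with the counts beside the bars and a dashed line for all 20949 protein-coding genes (9.63%). Genes of other chromatin repressors (11 of 26) and of NuRD (5 of 15) stand at the top, and the glial, vascular and microglial lists have none.

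A few loci held many peaks. Of 3534 genes that were nearest to a peak, 2557 had 1 peak and 16 had at least 10. Gse1, which encodes a chromatin-associated coiled-coil protein, had 27, all inside the gene over 285 kb, with a median fold of 3.71. Mn1, a transcriptional coregulator gene, had 26, of which 1 lay inside the gene. Zfp608 had 22, of which 14 were in all lists, and Auts2, a gene of neuronal development linked to a Polycomb complex, had 20, of which 10 were in all lists. All 12 peaks near Tmem161b were in all 6 lists. Tox3 (13), Cryba4 (12), Bcl11b (11), Tle3 (11), Zmiz1 (11), Cstad (11) and Usp25 (10) followed. Cryba4 and Mn1 lie on the same stretch of chromosome 5, and their peaks run on from each other. Over the list, 19.8% of peaks lay within 5 kb of another.

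The CHD4-named list was then set beside chromatin that differed between Dlx1/2KO and WT embryos. Of the 825 accessibility regions in the 4 lists, 213 (25.8%) held a CHD4-named peak. In FTneg cells it was 188 of 727 regions that were more accessible in KO (25.9%, interval 22.8 to 29.2) and 10 of 53 that were more accessible in WT (18.9%, 10.6 to 31.4), with intervals that overlap. In FTpos cells it was 0 of 12 KO-higher regions, which allows a share of up to 25%, and 15 of 33 WT-higher regions (45.5%, 29.8 to 62.0). KO-higher FTneg regions make up 727 of the 825, so the share over all 825 is not a separate background for them. None of the 4 lists holds regions equally open in both genotypes, so no share for such regions can be given. Shares of KO-higher FTneg regions in the other lists were 22.4% for the HDAC2-named list, 36.2% for MBD3, 39.2% for the HDAC1-named list, 43.3% for RBBP7 and 66.0% for RBBP4. For WT-higher FTpos regions they were 27.3% for RBBP7, 54.5% for the HDAC2-named list, 63.6% for MBD3, 72.7% for the HDAC1-named list and 87.9% for RBBP4. Restricted to peaks whose −log10 q was 10 or more, 9.35% of KO-higher FTneg regions held one, as did 1.89% of WT-higher FTneg regions (1 of 53) and 9.09% of WT-higher FTpos regions (3 of 33). With the summit required inside the region, the share of WT-higher FTpos regions was 30.3%.

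The 197 CHD4-named peaks in KO-higher FTneg regions (3.57% of the list) were shared between lists far more than those at tRNA genes. They lay in all 5 other lists in 99 cases (50.3%, interval 43.3 to 57.2), against 23.9% of all other peaks and 24.4% (22.9 to 25.8) of other peaks more than 1 kb from a gene end. Only 1 lay in no other list and none was near a tRNA gene. An RBBP7 peak accompanied 80.7%, against 50.4% of other peaks that far from gene ends, and an MBD3 peak 85.8%, against 63.0%. Their median fold was 4.56, against 4.25, and 1.02% lay at a gene end.

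**Figure D5:**
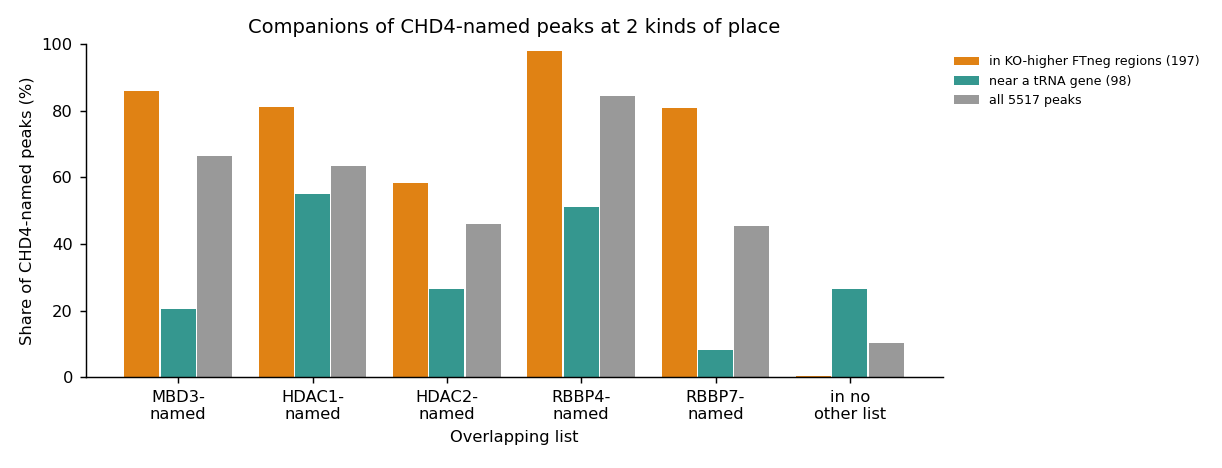
Share of CHD4-named peaks (y axis, %) that overlap each other list or none (x axis), for peaks in KO-higher FTneg regions (197), peaks within 500 bp of a tRNA gene (98) and all 5517 peaks. Peaks in KO-higher regions have RBBP7 as companion in 80.7% of cases and peaks at tRNA genes in 8.16%.

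By area, the authors' score for an accessibility region, the first KO-higher FTneg region with a CHD4-named peak lay 219298 bp from Prkd1, a protein kinase D gene (chromosome 12, 50120201 to 50122912, area 4771), where the peak had a fold of 8.56. A pair of regions inside Auts2 followed, with areas of 2215 and 2087 and folds of 6.03 and 4.37, along with regions inside Hat1 (6.02), Fbxl17 (4.40) and the RNA-binding protein gene Msi2 (4.26). Others lay nearest to Pdcd1 (7.99), the progenitor gene Sox21 (4.57), the protocadherin gene Pcdh8 (4.86) and Wac (4.96). All 10 of these peaks were in all 5 other lists. The transcription factor genes Hes1, Gli3 and Isl1 and the corepressor gene Tle1 were each nearest to 2 KO-higher regions with a CHD4-named peak, as were others such as Auts2 and Msi2. Tmem161b and Med10 were nearest to 3. A nearest gene can be far away. The CHD4-named peaks assigned to Isl1 lay 188274 to 265861 bp from it, and those of Tle1 lay inside it or up to 627939 bp away. Those of Gli3 lay inside it. Whether such regions act on the nearest gene was not tested.

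WT-higher regions with a CHD4-named peak included the mutated locus and its paralogs. A region 1363 bp from Dlx1 had an area of 9135 in FTneg and held a peak of fold 3.94 (chromosome 2, 71536021 to 71536314), which also lay in a WT-higher FTpos region of area 2239. The deleted bases themselves are not given in the sources used here, so a region there may be lost with the DNA, and a loss of DNA and a loss of accessibility cannot be told apart. Regions near Dlx6 (areas 1066 and 933) held peaks of fold 4.08 and 4.47. A region nearest to Sox11 at 403888 bp (area 980) held a peak of fold 3.84, and this peak and the second of the Dlx6 peaks recurred in FTpos. Hat1, nearest to 2 KO-higher regions with a peak, lies near Dlx1 on chromosome 2. So do Metap1d and Dync1i2, each with a WT-higher region in FTpos. No CHD4-named summit lay within 1 kb of an end of Dlx2. The other WT-higher FTneg regions lay in or nearest to Spon1 (3.23), Agbl1 (5.23), Tuba3b (5.75), Castor2 (4.85), Ndst3 (4.46) and Vwa5b1 (5.48). In FTpos they lay in or nearest to Pola1 (5.36), Abracl (3.68), Zfp608 (3.14 and 4.01), Metap1d (6.21), Asb4 (5.10), Mrm1 (3.98), Tecrl (4.95), Flrt2 (4.36), Dync1i2 (4.68), Itga1 (4.99) and Plxna2 (4.08). The ChIP was done at a later stage than the accessibility assay and in the whole tissue, so the peaks are not measurements in the same cells.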

How the data were processed

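ChIP-seq peaks were deposited by the authors as 1 list per library, called against input with blacklisted regions removed, per the list names. The submitters' processing notes name BWA, SAMtools 1.10, MACS2 2.2.7.1, Genrich, deepTools and mm10, with no settings. Each deposited ChIP peak has a fold enrichment (a ratio), a −log10 p and a −log10 q. Each deposited accessibility region has a score, the area over −log10 p, with a minimum of 500 by the authors. These values, all from the authors, served to rank and select peaks of each list. Where folds of several lists stand side by side or were correlated by rank, their scales may differ with input and depth, and no difference in level between lists is read from them. Read depth is unknown.

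Peaks on chromosomes 1 to 19 and X were compared by a minimum overlap of 1 bp and assigned to genes by their summit with Python 3.11.15, pandas 2.3.3 and numpy 2.4.6. Genes were 20949 protein-coding genes with a curated transcript, 408 tRNA genes and 20392 promoter windows (250 bp before to 50 bp after a start) of RefSeq on GRCm38.p6. Promoters of chromosome 18 were not used here. The interval code was tested on simulated lists. Members and gene lists were chosen with earlier results of these data known. Named are the 20 strongest peaks, the 12 genes with most peaks, up to 4 list members by fold (Rest, Dlx1 and the other members named beyond 4 were added after their values were seen), the 10 strongest peaks in no other list, the 10 KO-higher regions by area and all WT-higher regions with a peak, and Dlx1 and Dlx2. The tRNA genes, the B box, the genes named with them and the genes nearest to several KO-higher regions were chosen after values were seen. Alternatives were a −log10 q of at least 10, other windows and overlap rules, and lists of equal length. No test was run because each list rests on 1 library.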

Additional observations from a re-analysis of the deposited data

How the results depend on the processing

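The results depended on thresholds in size. With a −log10 q of at least 10, the CHD4-named list held 1278 peaks, 39.5% lay at a gene end, 557 genes had a peak at an end, 9.35% of KO-higher FTneg regions held a peak, and 81.7% of peaks overlapped another list. The share at gene ends was 27.7% with a window of 500 bp, 41.6% with 2500 bp and 37.3% when any base of the peak counted. The share with any other list was 83.7% when at least 0.5 of the shorter peak had to overlap, 77.7% for summits within 250 bp and 67.7% with lists of equal length. KO-higher FTneg regions with an area of at least 1000 held a peak in 33.6% of cases. The B box was present in 2.10% of promoters that held the summit and in 2.85% of those with a −log10 q of at least 10. The alternatives for tRNA genes and the B box were added after seeing the data: the share of peaks near a tRNA gene was 4.62% for peaks whose −log10 q was 10 or more, and between 1.74% and 1.94% with other windows.

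Counting each interval once left 5517 peaks, a 2500 bp window gave 2379 genes and all protein-coding genes 2047. No paired analysis was possible because no result comes from a test, each ChIP list rests on 1 library, and each accessibility list combines its embryos. With no replicate, unknown depth, and a conflict between the list's name and its sample's title, the spread of any value between embryos cannot be given. Most peaks of the list have a low fold, and a missing peak does not show that a site is unbound.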
